A study of Mus musculus with 18 samples.

Results

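Eef2 encodes eukaryotic elongation factor 2, the GTPase that moves the ribosome along the mRNA by a codon at each step of elongation. Rpl13a encodes a protein of the large ribosomal subunit. Both belong to the mRNAs of the translation machinery, many of which begin with a cytosine followed by a run of pyrimidines, the terminal oligopyrimidine (TOP) motif. The RNA-binding protein LARP1 and the kinase complex mTORC1 control the translation of such mRNAs, which makes their exact first nucleotide of interest. An mRNA can also end at different polyadenylation sites. Where these lie in the same 3′ UTR, the choice changes the length of the 3′ UTR and leaves the protein unaltered.

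The isoforms of these genes were taken as all deposited entries with both ends inside 81012000 to 81019000 on the plus strand of chromosome 10 (Eef2) or inside 44774800 to 44778500 on the minus strand of chromosome 7 (Rpl13a), in build GRCm39. This gave 84 of 13759 entries: 43 for Eef2 and 4 for Rpl13a of 7123 in the polysome table, and 33 and 4 of 6636 in the decay table. The genes were selected on the TE ratio between their 3′ ends at the main start, an outcome of the polysome libraries. TE by 3′ end, 3′ end choice and ranks are therefore descriptions with no test.

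The libraries were made by TIF-seq2, a method that pairs the 2 ends of each mRNA molecule. All came from primary myoblasts of the gastrocnemius of wild-type female mice, which fused into myotubes in the 24 h after addition of 1 µM SCH772984, an ERK inhibitor. Polysome libraries came from cells given 100 µg/ml cycloheximide for 5 min and were taken from the heavy (6 or more ribosomes), light (2 to 5 ribosomes) and ribosome-free parts of a 10 to 50% sucrose gradient, with the same 2 mice giving all parts. Decay libraries came from cells taken 0, 3, 6 and 12 h after 7.5 µg/ml actinomycin D, which blocks transcription, with the same 3 mice giving all times.

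Each table gives a whole-number coverage and a single derived value per isoform, pooled over 6 polysome or 12 decay libraries, so the spread between mice is unknown for every value below. Summed coverage was 1601919 in the polysome table and 3121491 in the decay table. The derived values are the authors' TE (translation efficiency, polysome table) and half-life (decay table). The sources used here state neither their formulas nor their units, nor whether TE was divided by the length of the transcript. TE of an mRNA such as Eef2 therefore cannot be read as ribosomes per mRNA when it is set beside that of another gene. As a check of the cells, 11 of 14 myotube markers and 0 of 6 myoblast or fibroblast markers could be named in the polysome table, and 10 and 0 in the decay table. A marker that was not named may still be present, since only part of the entries could be named.

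Each gene had a main start, the same nucleotide in both tables, and both main starts open with 7 pyrimidines. They are shown because the pyrimidine run at the first base is what defines a TOP mRNA, with the run in capitals and each sequence read 5′ to 3′ from the deposited 5′ UTRs. The starts lie at 81012480 on chromosome 10 and at 44778160 on chromosome 7.
Eef2 main start: CTCTTCCgccgcagccgccg
Rpl13a main start: CTTTCCCaggcggctgccga

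The first bases of these 5′ UTRs were found in the RefSeq promoter windows of Eef2 and Rpl13a (GRCm38.p6), 15 and 9 nt downstream of the RefSeq starts, which ties the entries to the gene names by sequence. The authors' own distance from the annotated start was 15 nt for Eef2 and 1 nt for Rpl13a, both inside the transcript. Eef2 had a 5′ UTR of 81 nt, and that of Rpl13a was 22 nt long, against a median of 111 nt over the polysome table. Neither holds an upstream ATG, while 42.6% of nuclear isoforms in the polysome table do. Their GC content was 67.9% (Eef2) and 68.2% (Rpl13a), with a median of 62.2% over nuclear isoforms.

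A start of C and 4 or more pyrimidines was present in 75.4% of Eef2 coverage and 98.6% of Rpl13a coverage in the polysome table. Over nuclear isoforms with a 5′ UTR sequence it was present in 12.0% of the coverage. The shares of the 2 genes also count their isoforms without such a sequence in the total. In decay libraries these shares came to 66.4% for Eef2, 99.0% for Rpl13a and 13.2% for nuclear isoforms with a 5′ UTR sequence. Counted by isoform, 348 of 6421 nuclear isoforms with a 5′ UTR sequence (5.42%) had such a start in the polysome table. All of the TOP coverage of Eef2 and of Rpl13a came from the main start. Neither main start has C and 7 pyrimidines, a stricter form found in 1.65% of nuclear isoforms with a 5′ UTR sequence.

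The 3′ ends joined to these starts are shown with the polyadenylation hexamer in capitals. This hexamer is the signal that the cleavage and polyadenylation machinery reads. The last 30 nt are given for each end, and for the shortest Rpl13a end the whole 23 nt of 3′ UTR.
Eef2 proximal end, 81018189: caaaagtctaAATAAAtgcattcagaggtt
Eef2 distal end, 81018329: attggagtAATAAActacagtggttgatcc
Rpl13a end with 23 nt, 44775347: acccAATAAAgactgtttgcctc
Rpl13a end with 174 nt, 44775196: agtttttATTAAAgtgcaaaccatgggatg
Rpl13a end with 381 nt, 44774989: gattttatgtgctAATAAAttatttgactt

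Of the 5 ends, 4 carry AATAAA and the rarely used Rpl13a end with 174 nt carries ATTAAA instead. The hexamer stood 14 and 16 nt before the proximal and distal Eef2 ends, and 13, 17 and 11 nt before the Rpl13a ends with 23, 174 and 381 nt. In the last 40 nt, 59.6% of the 3513 nuclear 3′ ends of the polysome table hold AATAAA and a further 14.7% hold only ATTAAA. Only the given strand was searched. A match is a description of the sequence.

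Most Eef2 coverage lay at its distal end, and most Rpl13a coverage at its most proximal end. From the main start, the proximal Eef2 end, 140 nt upstream of the distal end and listed as a new polyadenylation site, took 760 of 5350 counts in the polysome table (14.2%, 95% Wilson interval 13.3 to 15.2%). In the decay table it took 635 of 8184 counts (7.76%, 7.20 to 8.36%). For Rpl13a the end with 23 nt of 3′ UTR took 1782 of 2318 counts in the polysome table (76.9%, 75.1 to 78.5%) and 4744 of 6181 in the decay table (76.8%, 75.7 to 77.8%).

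The Rpl13a end with 381 nt took 21.7% (20.1 to 23.5%) in the polysome table and 22.1% (21.1 to 23.2%) in the decay table. The end with 174 nt took 1.38% (0.980 to 1.94%) and 1.13% (0.897 to 1.43%). Rpl13a end shares thus lay within each other's intervals in the 2 assays, while the Eef2 intervals did not overlap. The intervals cover counting error only, and the counts need not be independent molecules. The tables pool fractions and times with library sizes that are unknown here, so the shares are those of the pooled libraries.

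**Figure D1:**
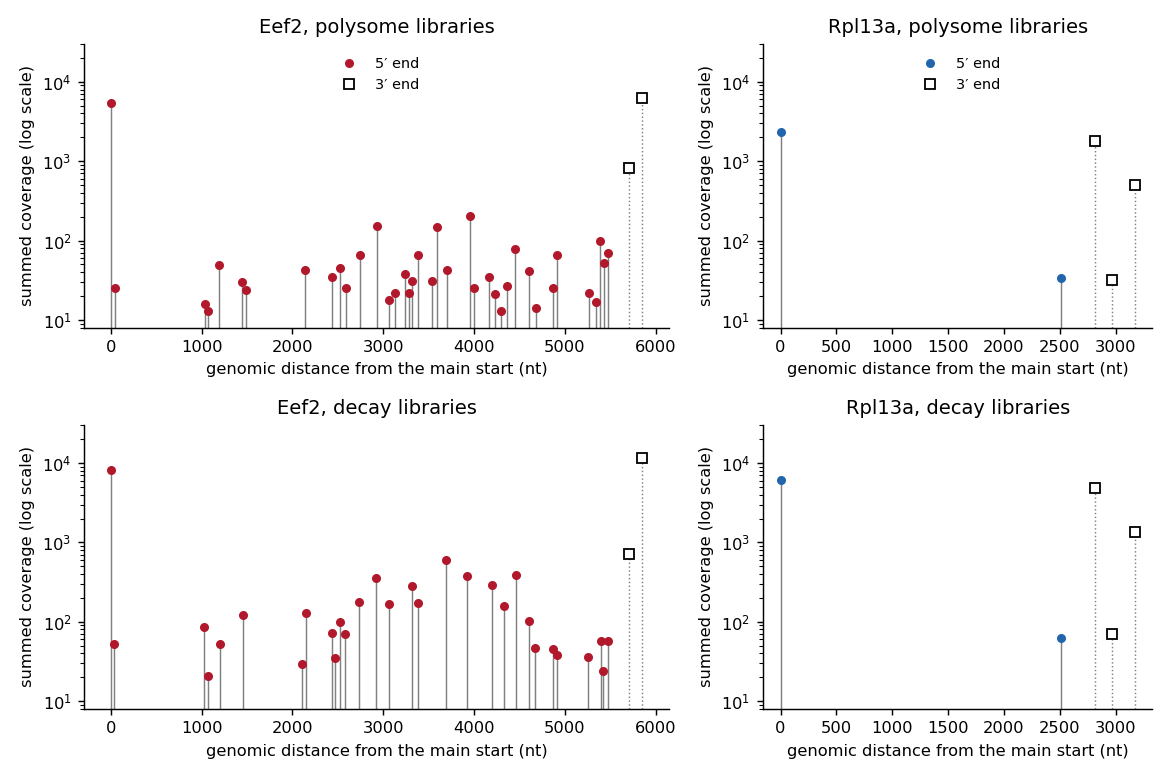
Summed coverage (log axis) at each 5′ end (filled circles) and 3′ end (open squares) against genomic distance from the main start in nt, for Eef2 (left) and Rpl13a (right) in the polysome (top) and decay (bottom) libraries. Rpl13a has a main start and 1 further start, while Eef2 has 36 internal starts in the polysome table and 28 in the decay table.

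A 3′ UTR of 23 nt is short for these cells. Only 0.832% of nuclear isoforms in the polysome table had one of that length or less, and the median was 327 nt over the isoforms with both UTR sequences. The 381 nt form adds 358 nt to it and no AU-rich ATTTA pentamer, a core sequence bound by mRNA decay factors. Both Eef2 forms hold 1 ATTTA, which lies in the 273 nt they share. This pentamer occurs in 29.1% of nuclear 3′ UTRs of the polysome table. The Pumilio motif TGTANATA was in none of the 5 forms and in 6.00% of nuclear 3′ UTRs. Both motifs were searched on the given strand only.

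In the pooled values at the main starts, on which the genes were selected, the longer forms had the lower TE in Rpl13a and the higher TE in Eef2. Rpl13a had a TE of 0.000771 for the isoform with 381 nt, 0.000966 for that with 174 nt and 0.00180 for that with 23 nt. The longest form was thus at 0.429 of the shortest, a log2 ratio of -1.22. The middle form, with a coverage of 32, lay 0.90 below the shortest on the log2 scale (log2 ratio -0.90), and the longest lay below the middle form (-0.33).

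Eef2 had a TE of 0.000258 with the distal end and 0.000207 with the proximal end, a ratio of 1.24 and a log2 ratio of 0.31. Both ends were joined to 4 internal starts in the polysome table, and 3 of these have TE values. Their log2 ratios of distal over proximal were 0.00, 0.13 and 0.88, and the proximal forms had coverages of only 12 to 18.

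No replicate values exist to set these ratios against. The spread of TE between near-identical isoforms can be described from those with the same start and 3′ ends under 50 nt apart. At a coverage of at least 100 their log2 ratios had an SD of 0.209 over 7 starts and none was larger than 0.292. At a coverage of at least 30 the SD was 0.399 over 35 starts and the largest 1.34. Without that largest pair the SD was 0.326 and the largest 1.13. The Eef2 ratio of 0.31 was above the SD and the largest ratio at a coverage of at least 100. It was below both SDs at a coverage of at least 30. The Rpl13a ratio of -1.22 was larger in size than each of these SDs. It was smaller than the single largest ratio of 1.34 and larger than the next of 1.13. The genes were selected on their TE ratios, so these SDs only give the scale of the values and test nothing about them.

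Among all 174 starts joined to 3′ ends at least 100 nt apart (coverage of at least 30), the longer form had the lower TE in 154, with a median log2 ratio of -0.43. The Eef2 ratio was higher than 168 of them and lower than 5. That of Rpl13a was higher than 12 and lower than 161.

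**Figure D2:**
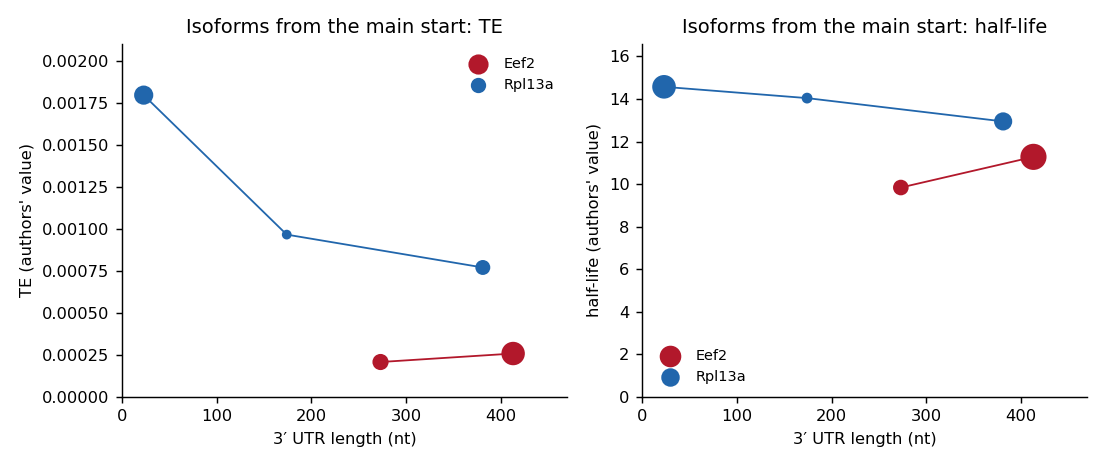
TE (left) and half-life (right), as the authors' values, against 3′ UTR length in nt for the isoforms from the main starts of Eef2 and Rpl13a, with point area rising with coverage. Rpl13a TE drops from 23 to 174 nt of 3′ UTR and the Eef2 pair runs the other way in both panels.

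Half-life was not used to pick the genes. The TE ratios were, so the sizes of the TE and half-life ratios are not compared. Half-life was 12.9 for Rpl13a with 381 nt, 14.0 with 174 nt and 14.6 with 23 nt. The log2 ratio between the longest and the shortest was -0.17. For Eef2 it was 11.3 with the distal end and 9.84 with the proximal end, a log2 ratio of 0.20. The same order held at the other 2 Eef2 starts joined to both ends in the decay table, at 13.7 against 10.1 (start 81016170) and 16.0 against 10.8 (start 81016946). The proximal forms there had coverages of 50 and 30, and the log2 ratios were 0.45 and 0.57.

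Half-lives of isoforms from the same start with 3′ ends under 50 nt apart had an SD of 0.408 log2 over 25 starts at a coverage of at least 100, and 0.828 over 80 starts at a coverage of at least 30. A single pair with a log2 ratio of size 5.62 carried much of the second SD, which was 0.540 without it. The ratios at the main starts were smaller than all 3 SDs. Of those at the other Eef2 starts, 0.57 lay above the SD without that pair and 0.45 below it. Over 318 starts with ends at least 100 nt apart the median was -0.17. Rpl13a lay near it, above 158 and below 159 starts, and Eef2 lay above 259 and below 58.

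**Figure D3:**
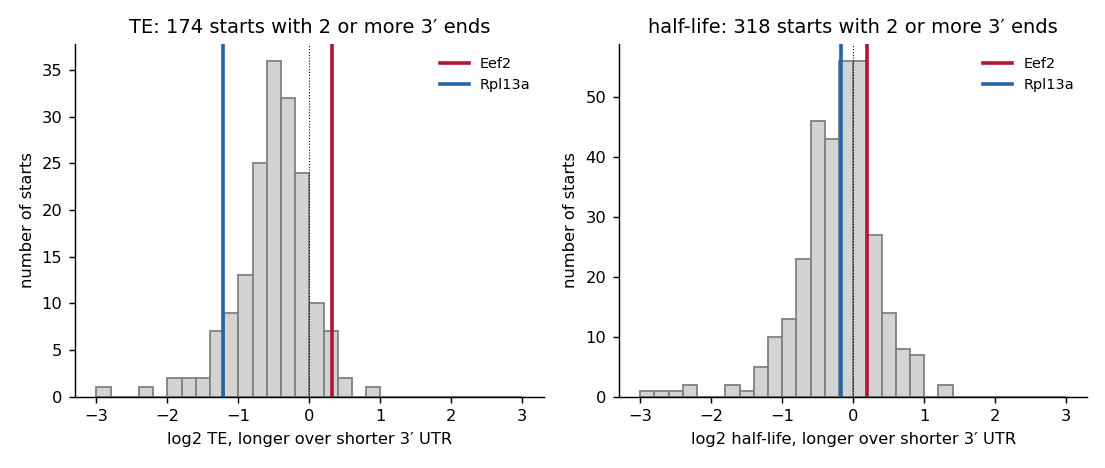
Number of starts by log2 ratio of the longer over the shorter 3′ UTR form for TE (left, 174 starts) and half-life (right, 318 starts), with vertical lines for Eef2 and Rpl13a and values beyond 3 in either direction drawn at 3. Eef2 stands near the upper end for TE at 0.31 and Rpl13a near the lower end at -1.22. The genes were selected on these TE ratios, so the left and right panels are not compared. For half-life both genes lie inside the bulk.

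Both mRNAs were abundant. The distal Eef2 isoform had a coverage of 4590 and ranked 57 of 7095 nuclear isoforms in the polysome table, and in the decay table it had 7549 and ranked 61 of 6593. The proximal form had 760 (rank 417) and 635 (rank 871). The Rpl13a isoform with 23 nt had 1782 (rank 167) and 4744 (rank 118), and the one with 381 nt had 504 (rank 606) and 1367 (rank 462). Library sizes are unknown, so coverage is not compared between the assays.

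Both Eef2 isoforms stood near the low end of the TE range, and of the Rpl13a isoforms only the one with 23 nt stood near the high end. The distal and proximal Eef2 isoforms were 333rd and 177th from the lowest of 6206 nuclear isoforms with a TE above 0, with 5.35% and 2.84% of them lower. For the Rpl13a isoforms with 23, 174 and 381 nt, 93.8, 68.1 and 53.8% of nuclear isoforms were lower. The median of all was 0.000727, so the long Rpl13a form lay close to it.

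Half-life ranks are given for the same isoforms. They are not contrasted with the TE ranks, because the genes were selected on TE ratios. Of 6409 nuclear isoforms with a half-life above 0, 57.5% were lower than distal Eef2 and 40.5% lower than proximal Eef2, around the median of 10.6. For Rpl13a the shares were 83.6, 80.9 and 74.1% for 23, 174 and 381 nt.

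Eef2 also had many listed 5′ ends inside the gene, where Rpl13a had a single one. Isoforms are listed only from a coverage of 11 (polysome) or 21 (decay) up. Rpl13a had fewer counts in all, 2352 and 6243, so rarer starts of Rpl13a may be missing. Internal starts of Eef2 took 1722 of 7097 counts in the polysome table (24.3%, 23.3 to 25.3%) and 4096 of 12333 in the decay table (33.2%, 32.4 to 34.0%). They were spread over 36 and 28 positions. The only internal start of Rpl13a, at 44775650, took 1.45% (1.04 to 2.01%) and 0.993% (0.776 to 1.27%) of its coverage. It was found at the same nucleotide in both tables.

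Of the internal Eef2 starts that have a sequence, 0 of 31 (polysome) and 0 of 23 (decay) began with C and 4 pyrimidines. The shares were 5.42% and 5.55% over all nuclear isoforms with a sequence. With C or T and 3 pyrimidines the counts were 2 of 31 and 1 of 23, beside 7.65% and 7.40% of all. Their first base was T in 10, C in 8, G in 7 and A in 6 cases in the polysome table, and T in 8, G in 8, C in 4 and A in 3 in the decay table. The most covered with a sequence in each table are shown to set beside the main start, with no capitals because neither opens with a pyrimidine.
Eef2 internal start 81016429 (polysome table): attgctggcgccggtgagct
Eef2 internal start 81016170 (decay table): ggccaagaacccagctgacc

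Few internal starts recurred at the same nucleotide. Of 36 polysome positions, 4 were listed at the same nucleotide in the decay table, 16 lay within 10 nt of a position there and 22 within 20 nt. The main start and both 3′ ends were identical in the tables. Of 43 Eef2 polysome isoforms, 6 had the same ends in the decay table, and for Rpl13a all 4 did. How the authors grouped neighbouring ends is not stated in the sources used here, and what molecules the internal starts stand for was not tested.

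The proximal end took 3.25% (2.51 to 4.20%) of the counts from internal starts and 14.2% of those from the main start in the polysome table, and 1.95% (1.57 to 2.42%) and 7.76% in the decay table. The tables list an isoform only from a coverage of 11 (polysome) or 21 (decay) up, so proximal forms of internal starts can be missing, which lowers the internal shares. Over the internal starts listed with both ends, the proximal share was 9.33% (56 of 600 counts from 4 starts, 7.26 to 11.9%) in the polysome table. In the decay table it was 8.15% (80 of 982 counts from 2 starts, 6.59 to 10.03%), an interval that holds the main start's 7.76%. Keeping only starts with a listed proximal form raises the share, and no difference between internal and main starts is read from these values.

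TE of the 34 internal isoforms with a value ranged from 0.0000914 to 0.000264 with a median of 0.000181. It was below the 0.000258 of the distal main isoform in 33 of them. The 18 with a coverage of at least 30 spanned 0.000138 to 0.000246. All 34 lay below the median of all nuclear isoforms.

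Half-lives of the 29 internal isoforms with a value ran from 5.40 to 28.6. Their median of 11.3 was equal to the value of the distal main isoform at this precision, with 15 below it and 14 above. The highest belonged to the start at 81016805 (coverage 160). The internal Rpl13a isoform had a half-life of 23.7 at a coverage of 62 and no TE value.

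**Figure D4:**
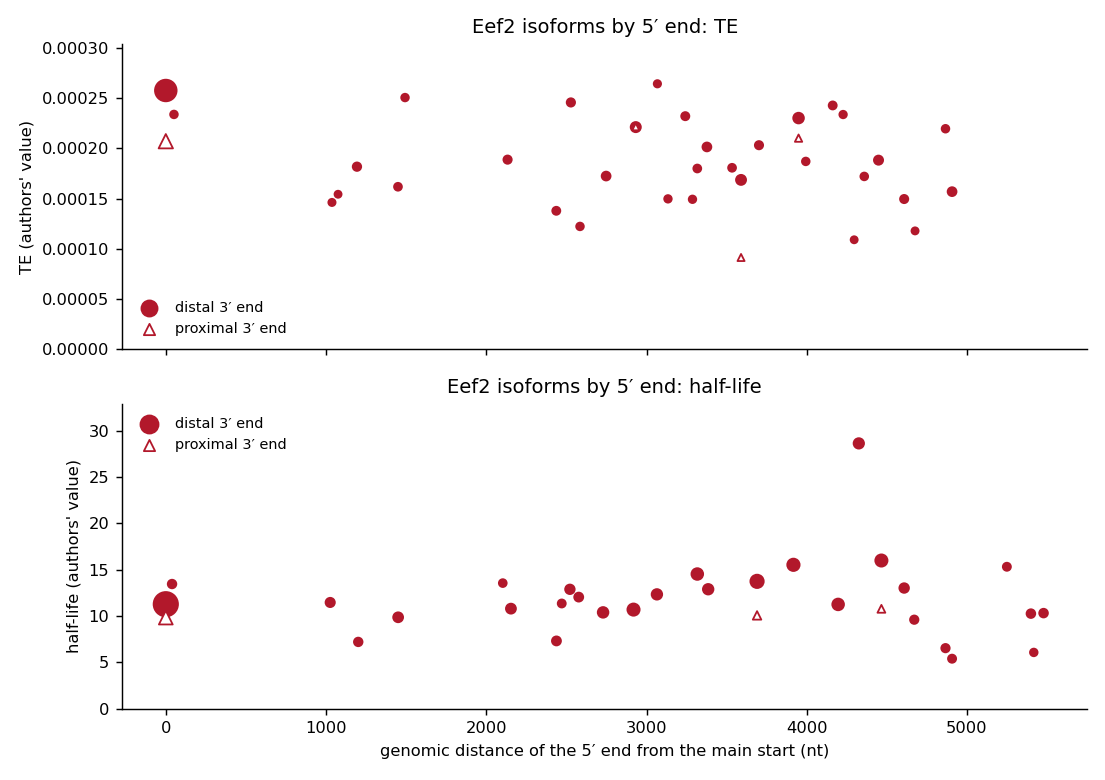
TE (top) and half-life (bottom) of Eef2 isoforms against the genomic distance of the 5′ end from the main start in nt, with filled circles for the distal and open triangles for the proximal 3′ end and point area rising with coverage. TE lies between 0.0000914 and 0.000264 along the gene, and half-life between 5.40 and 28.6.

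A few listed isoforms share an end with these genes and reach far outside. An isoform from 80379839 to the distal Eef2 end spanned 638 kb and had a coverage of 28 in the polysome and 36 in the decay table. Another ran from the Rpl13a main start to 44112146, over 666 kb, with a coverage of 12 in the polysome table. They are not counted above. RefSeq also lists a pseudogene of each gene, Eef2-ps2 and Rpl13a-ps1, and the sources used here do not say how reads that match a gene and a copy were assigned. RefSeq places 4 snoRNA genes (Snord32a, Snord33, Snord34 and Snord35a) within Rpl13a and 1 (Snord37) within Eef2. snoRNAs guide the chemical modification of ribosomal RNA and are released from introns of their host genes.

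Other translation machinery mRNAs were named by matching the first bases of their 5′ UTR to RefSeq promoter windows, and each is described by its most covered isoform. The list held cytosolic ribosomal proteins and related genes, elongation factors, and other mRNAs known to have TOP starts. Of the elongation factors only Eef2 could be named, so it is not set beside another. Among 36 ribosomal protein genes named in the polysome table, 31 lay above the median TE of all nuclear isoforms, with values from 0.000457 to 0.00259 and a median of 0.00121. Of these genes 31 had a 3′ UTR under 100 nt, and 27 had a start of C and 4 pyrimidines.

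Rpl13a with 23 nt of 3′ UTR was one of the higher among them, below 4 and above 31. The highest of the list was Rps16, a small subunit protein, at 0.00259 with a coverage of 18. Eef2 was the lowest of the list, below all 36. The next higher ribosomal protein gene was Rpsa, at 0.000457. None of the 4 other listed mRNAs named in that table (Vim, Btf3, Ybx1 and Eif3f) was above the median TE of all isoforms.

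By percentile among all nuclear isoforms, the ribosomal protein genes spanned 22.3 to 92.0 for half-life and 22.8 to 97.8 for TE. Of 37 ribosomal protein genes named in the decay table, 32 had a half-life above the median of all nuclear isoforms, with a median of 12.8 and a range of 8.24 to 18.0. Rpl13a was above 32 and below 4 of them. Eef2 was above 9 and below 28.

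The nearest genes in both measures were sought among the 19 other listed genes with the same isoform in both tables at a coverage of at least 100, by the distance between percentiles of TE and half-life. Rpl13a had close neighbours in the ribosomal protein genes Rpl10a (distance 4.16 percentile points), Rpl37a (6.68), Rps25 (8.76), Rps10 (9.20) and Rpl35 (10.4). Eef2 had none as close among these 19 genes. Rpsa was nearest at 23.8, followed by the intermediate filament gene Vim (35.9), Rack1 (46.9), Rpl14 (50.7) and Rps27 (51.2).

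**Figure D5:**
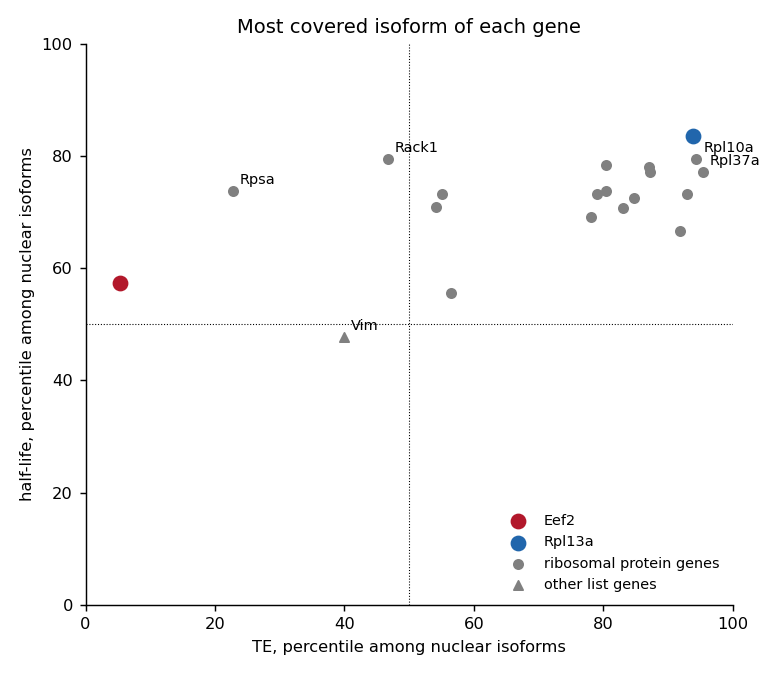
Half-life percentile against TE percentile among nuclear isoforms for the most covered isoform of Eef2, Rpl13a and the other listed genes found in both tables at a coverage of at least 100, with dotted lines at 50. Rpl13a lies among the ribosomal protein genes at the upper right, and Eef2 is the leftmost gene shown, at a TE percentile of 5.35. Ybx1, at a TE percentile of 7.07, is not shown because its polysome coverage was 43.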

How the data were processed

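TIF-seq2 libraries were processed by the authors, and per the submitters' processing notes they used bcl2fastq 2.20.0, cutadapt 1.16, UMI-tools 0.5.4, STAR 2.5.3a and build GRCm39. The authors deposited for each assay a table of isoforms with a pooled coverage count and a derived score, named TE or HalfLife, and the UTR sequences. Of their columns 0 hold a single library, and the depth of each library is thus unknown. The sources used here do not state how ends were grouped.

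Percentiles are the share of nuclear isoforms with a value above 0 that lie below. Shares of counts carry 95% Wilson intervals. Pairs of 3′ ends share the start and 5′ UTR, and the shorter 3′ UTR opens the longer. Where a start had several such pairs, the one whose less covered form had the most counts was used. Entries were named when the first 20 bases of the 5′ UTR (at least 15) stood in the RefSeq window of 1 gene on the same chromosome and strand, 250 nt before to 50 nt after its start, which named 2146 polysome and 2083 decay entries. The naming was tested on simulated data. Python 3.11.15, pandas 2.3.3 and scipy 1.17.1 were used.

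The genes named are all Eef2 and Rpl13a isoforms, from the list the 5 genes nearest to each, and the highest and lowest TE. Other names were added where a count was small. Members and lists were chosen with earlier results of these data known. No test between groups was run.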

Additional observations from a re-analysis of the deposited data

How the results depend on the processing

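Ranking against isoforms with a coverage of at least 30 and at least 100 in place of all gave TE percentiles of 3.44 and 1.82 for distal Eef2, 1.73 and 0.798 for proximal Eef2, and 95.5 and 95.1 for Rpl13a with 23 nt. At 100 they were 66.4 for Rpl13a with 174 nt and 49.2 for that with 381 nt. Half-life percentiles became 55.3 and 45.6 for distal Eef2 and 36.8 and 24.4 for proximal Eef2, and 69.9 at 100 for Rpl13a with 381 nt. The proximal Eef2 end took 11.5% over all starts in the polysome table and 5.80% in the decay table; the cause was not tested. Of nuclear isoforms with a 5′ UTR sequence, 7.65% (polysome) and 7.40% (decay) began with C or T and 3 pyrimidines. The shares with C and 7 were 1.65% and 2.00%. With only starts at the exact RefSeq start, 6 of 7 ribosomal protein genes were above the median for TE and 6 of 7 for half-life, as fewer genes were named. Leaving out the most different near-identical pair was added after the data were seen and is given at a coverage of at least 30. So was counting only internal starts listed with both ends, whose values stand in the report. Coverage-weighted means over all starts gave log2 ratios of 0.24 (TE) and 0.27 (half-life) for Eef2, and -0.18 for Rpl13a half-life. Rpl13a TE stayed at -1.22, since its only other start has no TE value. The main starts carry most of the weight, so these means are no separate check of the direction. No paired analysis was possible because the tables hold no value per mouse, and for the same reason no replicate could be left out. Low coverage limits the middle Rpl13a form and the internal Eef2 starts.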

Other observations

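Other ribosomal protein genes of the list with 3′ ends at least 100 nt apart at the same start and a coverage of at least 30 were few. TE was lower in the longer form of Rpl37a, at 0.000995 against 0.00195 for the shorter (log2 ratio -0.97), and of Rpsa, at 0.000284 against 0.000376 (-0.40). Half-life was lower in the longer form of Rpl37a (10.3 against 13.4) and higher in that of Rpsa (23.7 against 18.3), Rack1 (26.9 against 13.8) and Rpl14 (24.3 against 12.6). Over all such starts, the longer form was lower in 154 of 174 for TE and in 204 of 318 for half-life. Coverage was low for the longer form of Rpl37a in the polysome table, at 38, and for those of Rack1 and Rpl14 in the decay table, at 87 and 74. The Rpsa pair leaves out the most covered Rpsa isoform, which had a coverage of 8829 (polysome) and 17576 (decay). The shorter and longer Rpsa forms had coverages of 290 and 253 (polysome) and 426 and 291 (decay).

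Half-life of Eef2 isoforms that end distally and start inside the gene was set against the position of the start. Spearman's rho was -0.0495 over all 27 and 0.0846 over the 25 with a coverage of at least 30. It was 0.775 over the 13 with a coverage of at least 100. All points share the gene, the 3′ end and the pooled libraries. The coverage minimum of 100 was chosen after the values were seen, and no relation is read from it.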
